A study of Rattus norvegicus with 8 samples.

Results

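The genes of the cytosolic ribosomal proteins were examined as a set in rat thoracic aorta. Members were all rows of the deposited gene table whose name is Rpl or Rps followed by a protein number or by the names Rplp0 to Rplp2 and Rpsa, with the letter suffixes used for paralogues. The kinases of S6 and the mitochondrial ribosomal proteins do not match that pattern. This gave 88 gene rows of 19238, 54 of the large and 34 of the small subunit. The rows carry 74 distinct names, since 10 names stand on more than 1 row at different loci. Of the 77 core proteins listed, 64 were found under that name. Total RNA of thoracic aorta was sequenced in 4 libraries from control rats of the Wistar strain and 4 from rats of the GK strain, which the labels place in a group called Diabetic Macroangiopathy. The labels give an age of 7 to 8 weeks for all 8. The GK (Goto-Kakizaki) rat is an inbred strain, bred from Wistar rats, that becomes diabetic without a drug or a transgene, so strain and diabetes cannot be told apart in this design. The labels name no treatment. They do not state that each library is a single animal, so p-values measure the spread between these samples. Libraries are named here by group and the number in their titles, 7 to 10 in each group.

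The cytosolic ribosome reads mRNA and joins amino acids. Its small subunit holds the decoding site, and its large subunit holds the peptidyl transferase centre and the exit tunnel. The proteins are made in nearly equal numbers, and their mRNAs are among the most abundant of most cells. Most of these mRNAs begin with a C followed by an unbroken run of C and T (U in RNA), the terminal oligopyrimidine or TOP tract, through which LARP1 and the mTORC1 kinase complex set how strongly they are translated. Mammalian genomes also carry many processed copies of these genes, whose sequence can be nearly the same as that of the parent.

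The tract was looked for at the RefSeq starts of genes with a member's name, because it is the sequence feature that the family shares and that the choice by name did not use. Of the 74 names, 57 had an entry in the RefSeq table of build GRCr8, with 58 starts. Starts were matched by name and not by locus: for 53 of them a member row lies on the same chromosome, and the starts of Rpl35a, Rpl37, Rpl38, Rpl5l1 and Rps4x are on chromosomes without a row of that name. Each window below spans 15 bases before and 15 from the annotated start, 5′ to 3′ on the strand of the gene, and capitals mark the longest run of C and T counted from a C within 10 bases of the start, where it reached 8 bases. The first 6 are members that the results below turn on and that hold such a run.
Rps18, chr20:4933730-4933759, plus strand: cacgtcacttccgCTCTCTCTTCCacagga
Rpl14, chr8:129163605-129163634, plus strand: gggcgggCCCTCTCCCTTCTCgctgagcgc
Rps10, chr20:5700730-5700759, minus strand: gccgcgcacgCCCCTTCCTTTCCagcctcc
Rps7, chr6:50999431-50999460, minus strand: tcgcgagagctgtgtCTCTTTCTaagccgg
Rplp0, chr12:46718376-46718405, minus strand: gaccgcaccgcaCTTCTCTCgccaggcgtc
Rpl19, chr10:83519049-83519078, plus strand: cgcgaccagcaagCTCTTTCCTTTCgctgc
The next 4 have no such run at the annotated start: a core protein that passed the test and the paralogues Rpl22l1, Rps27l and Rpl7l1.
Rps16, chr1:92770643-92770672, plus strand: cctggaaaatcggtcggggtggccccaagc
Rpl22l1, chr2:113683181-113683210, plus strand: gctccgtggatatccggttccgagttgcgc
Rps27l, chr8:76443643-76443672, plus strand: gtttattcatttgtcattatttgtggtgtc
Rpl7l1, chr9:21695703-21695732, plus strand: agctgcagatgcattgtgggaagcctttaa

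Of the 58 member starts, 32 (55.2%) held a run of at least 8 bases, against 7.34% of all 33469 starts in the table. The stricter form, a C at the start base followed directly by C or T over at least 5 bases in all, was present at 21 member starts (36.2%) and at 2.63% of all starts. Over the 53 starts with a row on their chromosome the shares were 54.7% and 35.8%. The median of the longest run was 8 bases in members and 3 bases over all starts. None of the 6 paralogue starts held the strict tract, and 2 of them held the longer run. Among 68 starts of mitochondrial ribosomal protein genes, 3 (4.41%) held the run. The annotated start of a gene can differ from the base where its mRNA begins in this tissue, so a window without the run says only that those letters are not there.

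**Figure D1:**
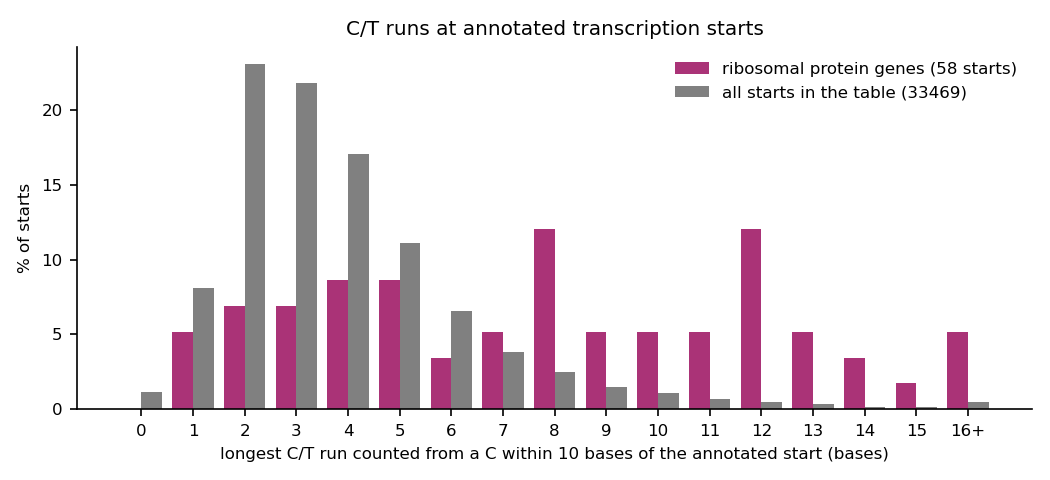
Share of annotated starts (y axis, percent) by the length of the longest C/T run counted from a C within 10 bases of the start (x axis, bases; 16 and longer pooled), for 58 starts of ribosomal protein genes and all 33469 starts of the RefSeq table. Member starts spread to longer runs: 55.2% reached 8 bases, against 7.34% of all starts.

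Libraries held 11760397 to 13466170 counts over all genes in controls and 13188728 to 16266151 in GK, where 3 libraries lay above every control, and member rows took 65574 to 116198 counts per library. Levels are given as CPM, the depth-scaled count, on library sizes scaled by TMM, a factor that equalises libraries over the bulk of genes. Libraries differed in their makeup of cell types. Smooth muscle markers, which define the labelled tissue, were present in every library, with all 15 of 15 found above 0, and their summed CPM ran from 6792 to 18061 in controls and from 3595 to 11360 in GK. General adipocyte markers (14 of 15 found, none at 0) summed to 9616 to 15400 CPM in controls and 17599 to 33862 CPM in GK. Fibroblast markers (10 of 11 found, none at 0) summed to 7861 to 15226 CPM in controls and 1801 to 5517 CPM in GK. Endothelial markers (11 of 12 found, none at 0) summed to 809 to 1228 CPM in controls and 1359 to 1678 CPM in GK, and macrophage markers (10 of 10 found, none at 0) to 470 to 1250 CPM and 326 to 551 CPM. Erythroid markers, which include the globins (5 of 6 found, none at 0), summed to 3778 to 44008 CPM in controls, with control 9 highest and control 8 at 29273 CPM, and to 5786 to 12044 CPM in GK. GK 9 stood apart with 17128 CPM of skeletal muscle markers, where the other 7 libraries had 49 or less. Of that list 8 of 10 genes were found, and Tnni2, Actn3 and Pvalb were at 0 in at least 1 library. Cardiomyocyte markers (7 of 7 found, 5 at 0 in some library) summed to 1181 CPM in GK 7, 2313 CPM in GK 8 and 664 CPM in control 7. They summed to 128 to 163 CPM in controls 8 to 10, and to 72.8 and 63.1 CPM in GK 9 and GK 10. Nerve and Schwann cell markers (8 of 8 found, 2 at 0 in some library) summed to 132 to 644 CPM in controls and 381 to 1656 CPM in GK, highest in GK 9.

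Ribosomal protein mRNA was lower in the GK aorta across most of the set, by a modest amount. The control libraries 7, 8, 9 and 10 had summed member levels of 6035, 10105, 7808 and 6732 CPM, and the GK libraries of the same numbers had 4798, 5208, 5566 and 6441 CPM. Control 8 was highest, 3 GK libraries lay below every control, and GK 10 lay above control 7, so the groups overlapped. The means were 7670 ± 1780 CPM in controls and 5503 ± 700 CPM in GK (SD, n = 4 each), a ratio of 0.72. Since this is bulk tissue, fewer cells rich in these mRNAs and less of them per cell cannot be told apart. Erythroid marker sums were 4183, 29273, 44008 and 3778 CPM in control libraries 7 to 10 and 12044, 5786, 11956 and 10826 CPM in GK 7 to 10. The adipocyte, endothelial and fibroblast sums differed between the groups without overlap. The part of these cell types, or of erythroid cells, in the lower level was not tested. Without control 8 the ratio was 0.80.

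Across the individual genes the shift was broad and mostly small. Of the 88 rows, 77 had enough counts to be tested, and the other 11 held few counts in most libraries. Of the 77, 68 had a log2 fold change (GK over control) below 0, where 50% of all 13673 tested genes did. Their median was -0.51, with quartiles of -0.64 and -0.30, against 0.00 over all tested genes. The count of tested rows whose 4 GK values lay wholly below the 4 control values was 17 (22.1%), where 7.64% of all tested genes had this pattern. The opposite pattern was seen in 1 row, Rps7, where 7.93% of all tested genes had it. In the quasi-likelihood test of edgeR, adjusted by Benjamini and Hochberg over every tested gene, 7 rows (9.09%) were lower in GK and 0 were higher, against 3.31% and 3.96% of all tested genes. The count of lower rows was 1 without GK 7 and without GK 8, 2 without control 9 and without control 10, 3 without control 8 and without GK 10, and 11 without GK 9, and DESeq2 called 15. An unadjusted p under 0.05 was reached by 39 of the 77 rows, and by 27.6% of all tested genes. The 45 tested large subunit rows had a median of -0.46 with 4 called lower. The 32 tested small subunit rows had a median of -0.51 with 3 called lower. The 57 rows with a mean of at least 10 CPM had a median of -0.51 and held 4 of the 7 calls, and the 20 below that level had a median of -0.36 with wider scatter.

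**Figure D2:**
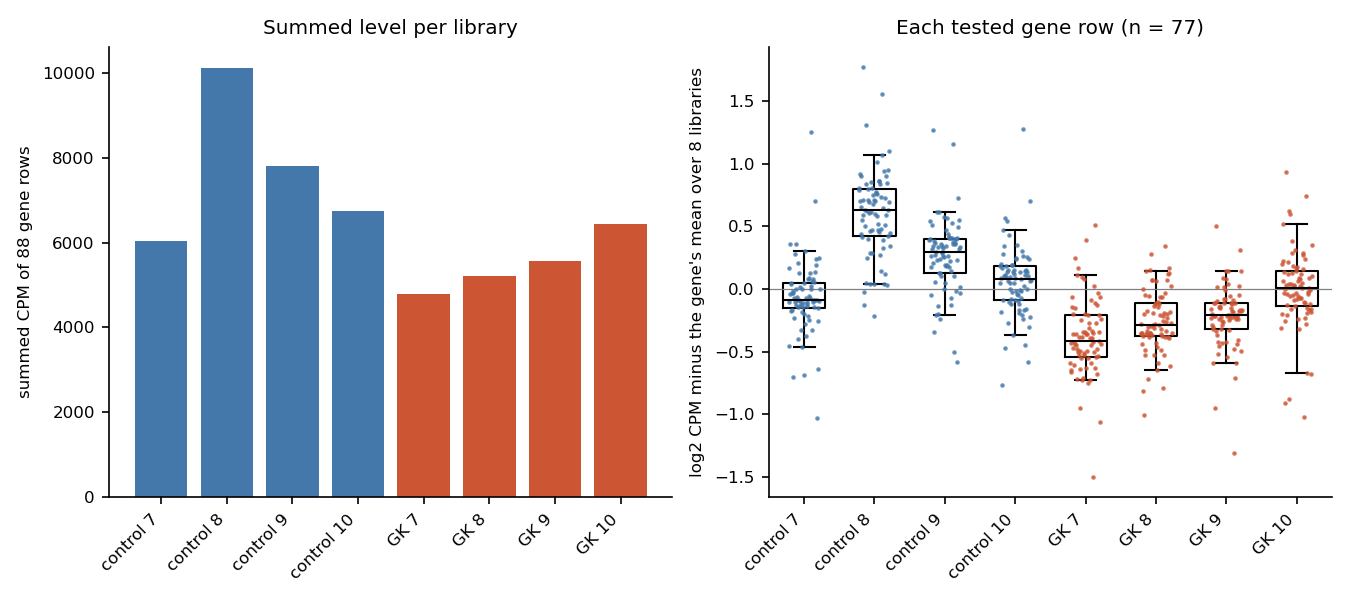
Left, summed CPM of the 88 ribosomal protein gene rows in each library (bars from 0; blue control, red GK). Right, log2 CPM of each of the 77 tested rows minus its mean over the 8 libraries (points), with the median and quartiles (box) and the 5th to 95th percentile (whiskers): control 8 is highest, and GK 10 overlaps controls 7 and 10.

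Rows also stood high or low together within single libraries. In control 8, 74 of the 77 rows stood above their own mean over the 8 libraries, and in control 9, 64 did. In GK 7, 8 and 9 only 8, 13 and 11 rows did. Control 7 had 25 rows above their mean and GK 10 had 40, so the order of these libraries did not follow the group.

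**Figure D3:**
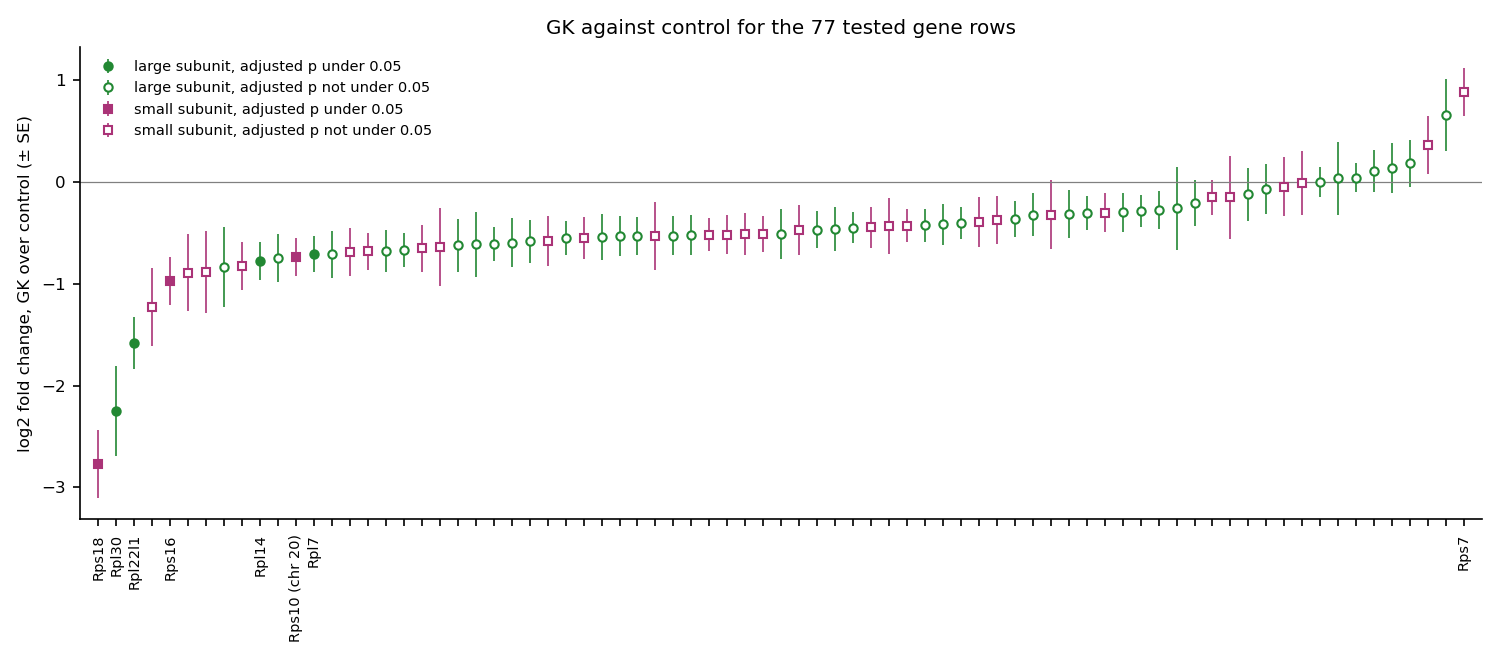
Log2 fold change of GK over control (y axis, points, with SE as bars, from edgeR on 4 libraries per group) for the 77 tested rows in order of value; circles are large and squares small subunit genes, and filled symbols have an adjusted p under 0.05. Names are given for the rows that passed and for Rps7. The 7 filled symbols all lie below 0, and Rps7 is the highest point.

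Among the core proteins of the large subunit, Rpl14, Rpl7 and Rpl30 fell. Rpl14 (chromosome 8, 129240528 to 129243402) encodes eL14, a protein on the solvent side of the subunit. It stood at 122, 161, 125 and 116 CPM in control libraries 7 to 10 and at 63.5, 71.4, 67.5 and 104 CPM in GK 7 to 10. All GK values were below all control values, and GK 10 came nearest to them. Its log2 fold change was -0.78 ± 0.19 (SE; edgeR adjusted p = 0.0461), and 9 of 18 alternatives kept the call. Rpl7 (chromosome 5, 2632712 to 2640021), which encodes uL30, stood at 235, 389, 302 and 301 CPM in controls and 177, 169, 204 and 199 CPM in GK. The groups did not overlap, and the GK libraries varied less than the controls. Its log2 fold change was -0.71 ± 0.18 (SE; edgeR adjusted p = 0.0484), with the call kept in 8 of 18 alternatives. Leaving out GK 7 or GK 8, or control 8, 9 or 10, ended the call of either gene, as did leaving out control 7 for Rpl14 and GK 10 for Rpl7. Rpl30 (chromosome 7, 73213581 to 73216251), which encodes eL30, had a low level on its own row, 2.65, 10.5, 7.26 and 3.97 CPM in controls and 1.61, 1.10, 1.16 and 1.21 CPM in GK. Its log2 fold change was -2.25 ± 0.44 (SE; edgeR adjusted p = 0.0254). The call ended when any of 5 single libraries was left out (control 9 or 10, GK 7, 8 or 10). This row holds 387 counts over all libraries, and the fold change does not describe all L30 mRNA, as given with the copies below.

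Among the small subunit genes, Rps16, Rps18 and 1 of the Rps10 rows fell. Rps16 (chromosome 1, 85405499 to 85408444) encodes uS9, whose tail reaches the decoding site. It stood at 117, 250, 184 and 157 CPM in controls and 73.3, 82.0, 107 and 98.7 CPM in GK. No GK value reached the lowest control, and the gap between GK 9 and control 7 was small. The log2 fold change was -0.97 ± 0.24 (SE; edgeR adjusted p = 0.0472), and leaving out any 1 of controls 8, 9 and 10 or GK 7, 8 and 10 ended the call. Rps18 (chromosome 20, 5442390 to 5445509), which encodes uS13 of the small subunit head, stood at 7.80, 9.73, 4.50 and 7.93 CPM in controls and 0.732, 1.51, 0.905 and 1.21 CPM in GK. The groups were well apart, and the log2 fold change of -2.77 ± 0.34 (SE; edgeR adjusted p = 0.00674) had the lowest adjusted p of the set. The call ended only when copies were added, among 18 alternatives. The Rps10 row on chromosome 20 (7215774 to 7219548), which encodes eS10, stood at 52.2, 81.6, 61.1 and 48.0 CPM in controls and 30.6, 36.2, 41.4 and 37.2 CPM in GK. Its log2 fold change was -0.74 ± 0.18 (SE; edgeR adjusted p = 0.0485), a call kept in 4 of 18 alternatives and lost without any 1 library other than GK 9. A further Rps10 row, on chromosome 6, had a log2 fold change of -0.15 (edgeR adjusted p = 0.595). The adjusted p of Rpl14, Rpl7, Rps16 and the Rps10 row on chromosome 20 lies just under the threshold. Just outside it were Rpl32 on chromosome 6 (-0.67, adjusted p = 0.0503 by edgeR), Rps7 (0.88, 0.0582) and Rps4x (-0.68, 0.0593). The Rpl32 row on chromosome 4 had a log2 fold change of -0.12 (edgeR adjusted p = 0.783).

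**Figure D4:**
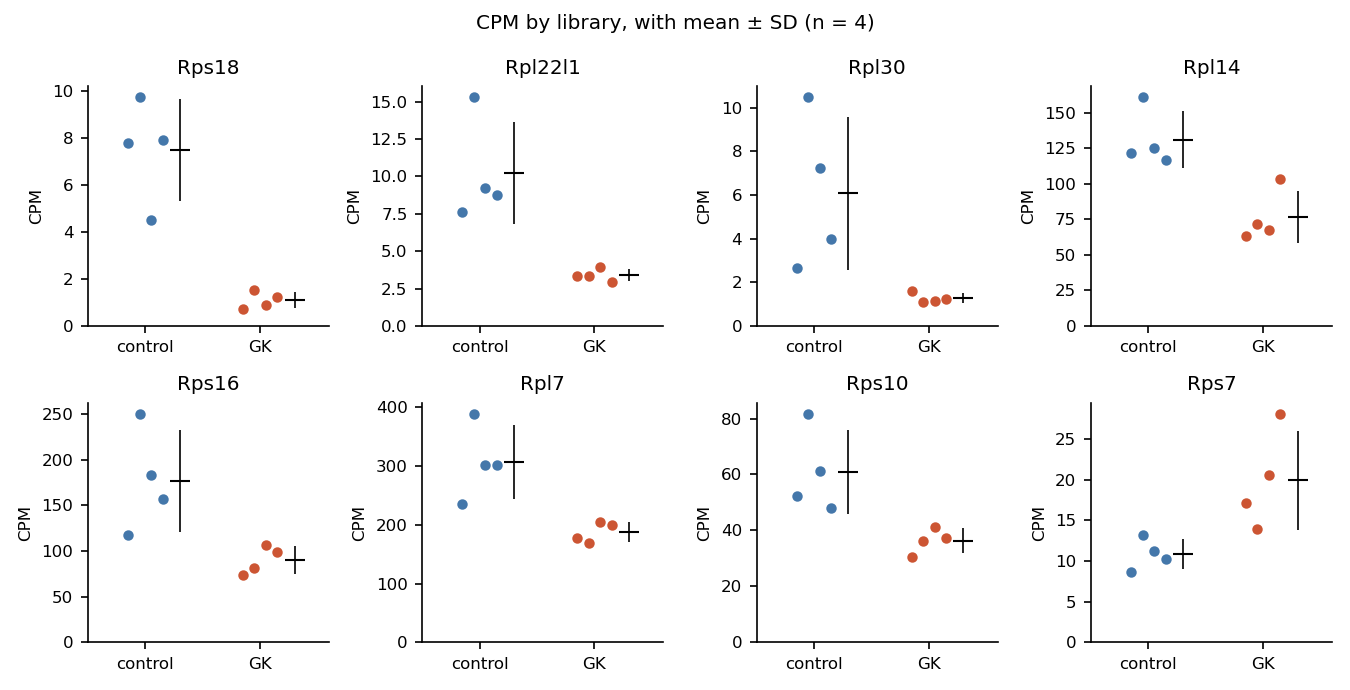
CPM by library (points; blue control, red GK; y axes from 0) with the mean and SD of 4 libraries, for the 7 rows that passed the test (the Rps10 row is that on chromosome 20) and for Rps7. GK points lie below all control points in the first 7 panels and above them for Rps7.

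Rps7 was the row with the highest log2 fold change. It encodes eS7, 1 of the small subunit proteins that can bind MDM2. The row (chromosome 6, 47899558 to 47904163) stood at 8.68, 13.2, 11.3 and 10.3 CPM in controls and 17.2, 13.9, 20.6 and 28.1 CPM in GK. All GK values exceeded all control values, and the log2 fold change of 0.88 ± 0.24 (SE) missed the threshold with edgeR's adjusted p of 0.0582. The next highest were a low Rpl35a row on chromosome 6 (0.66 ± 0.35, edgeR adjusted p = 0.261) and Rps14 (0.36 ± 0.29, 0.439), whose groups overlapped. The Rps14 row had at most 1.24 CPM in any library.

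The paralogues, some of which can take the place of a core protein, did not share 1 pattern. Rpl22l1, the paralogue of Rpl22 with known roles in T cell development and splicing, stood at 7.65, 15.3, 9.21 and 8.76 CPM in controls and 3.37, 3.37, 3.95 and 2.95 CPM in GK (chromosome 2, 115362799 to 115364729). The highest GK value was well under the lowest control. Its level was 2.99-fold lower, a log2 fold change of -1.58 ± 0.25 (SE; edgeR adjusted p = 0.0151). The assignment of copies used below could place no other row with it, so whether it has near-identical copies was not tested. The call ended without GK 7 and without GK 8. Rpl22 under its own name was not analysed here. A row described as L22-like had a log2 fold change of -0.58 (edgeR adjusted p = 0.132), and the log2 count ratio of Rpl22l1 to that row was -1.92 ± 0.42 in controls and -2.87 ± 0.48 in GK (SD, n = 4 each). The groups of this ratio did not overlap. It was added after the fall of Rpl22l1 had been seen, so it is a description. Rpl7l1, a paralogue of Rpl7 known as a factor of large subunit assembly, was at 15.3 ± 1.20 CPM in controls and 15.8 ± 2.19 CPM in GK, a log2 fold change of 0.04 ± 0.14 (SE) that turned to -0.14 with library totals only. The log2 count ratio of Rpl7l1 to Rpl7 was -4.07, -4.61, -4.18 and -4.37 in controls and -3.42, -3.37, -4.02 and -3.50 in GK. It was higher in every GK library, by 0.73 on the log2 scale, with a two-sided exact permutation p of 0.0286, the smallest that 4 against 4 can give. Adjusted over the 2 pairs that could be tested this was 0.0571, which does not pass. Rps27l, a p53 target gene and the paralogue of Rps27, was at 8.69 ± 2.65 CPM in controls and 6.59 ± 1.07 CPM in GK. Its log2 ratio to Rps27 differed by 0.28 between the groups, which overlapped (exact permutation p = 0.371). Rpl10l, a testis paralogue of Rpl10, was among the lowest rows, at 1.22 ± 0.437 CPM and 0.678 ± 0.240 CPM (edgeR adjusted p = 0.204).

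Rpl3l, the striated muscle paralogue of Rpl3, was high in a single GK library. It had 3, 0, 2 and 1 counts in control libraries 7 to 10 and 3, 13, 337 and 0 counts in GK 7 to 10. GK 9 alone held 337 of the 353 GK counts, and GK 9 was the library with 17128 CPM of skeletal muscle markers. GK 8 and GK 7, with 13 and 3 counts, had the highest cardiomyocyte marker sums (2313 and 1181 CPM). The part of these cell types in the Rpl3l counts was not tested. The row did not pass the filter on low counts, and without the filter its adjusted p from edgeR was 0.133. The authors' deposited table calls it higher in GK, with a log2 fold change of 5.84 and a q-value of 0.00957. The core gene Rpl3 was at 267 ± 44.6 CPM in controls and 198 ± 17.3 CPM in GK (SD, n = 4 each; edgeR log2 fold change -0.43 ± 0.16 SE, adjusted p = 0.132).

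The rows with the highest level per length showed the same direction as the median without passing the test. Per the deposited FPKM, a level scaled by exon length and depth, rows with the highest means over 8 libraries included the Rps29 row on chromosome 3 (514 FPKM), Rpsa (489 FPKM), Rpl19 (464 FPKM) and Rpl29 (424 FPKM). Rps29 encodes a zinc-binding protein of the small subunit head. The CPM of the chromosome 3 row, which has no intron in the model, was 74.4, 159, 106 and 89.2 in controls and 53.1, 68.7, 69.7 and 74.0 in GK. The groups were separated by less than 1 CPM, between GK 10 and control 7, and the log2 fold change was -0.69 ± 0.24 (SE; edgeR adjusted p = 0.107). The Rps29 rows on chromosomes 13 and 6 gave -0.53 and -0.15 (edgeR adjusted p = 0.337 and 0.834), with groups that overlapped. Rpsa, which doubles as a laminin receptor, was at 449, 793, 484 and 528 CPM in controls and 383, 447, 362 and 544 CPM in GK. GK 10 lay above 3 of the 4 controls, and the log2 fold change was -0.38 ± 0.23 (SE; edgeR adjusted p = 0.328). Rpl19 and Rpl29 had log2 fold changes of -0.28 ± 0.19 and -0.60 ± 0.24 (SE), with edgeR adjusted p of 0.362 and 0.153.

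The stalk that recruits translation factors to the large subunit is built from Rplp0 as its base and from Rplp1 and Rplp2. Rplp0 stood at 375, 761, 532 and 463 CPM in controls and 257, 332, 329 and 351 CPM in GK. Its groups did not overlap, and the log2 fold change was -0.75 ± 0.24 (SE; edgeR adjusted p = 0.0890). The Rplp1 rows on chromosomes 17 and 8 gave 0.18 ± 0.23 and 0.14 ± 0.25 (SE; edgeR adjusted p = 0.636 and 0.742), and either value fell below 0 with library totals only. Rplp2, and Rps6, the small subunit protein phosphorylated by the S6 kinases, were not analysed here under those names. Rpl5 and Rpl11 form, with 5S ribosomal RNA, the particle that binds MDM2 when ribosome assembly is disturbed. Rpl5 was at 188 ± 22.2 CPM in controls and 138 ± 21.5 CPM in GK (SD, n = 4 each), without overlap, and Rpl11 was at 190 ± 29.1 CPM and 147 ± 26.4 CPM with overlap. Their log2 fold changes were -0.45 ± 0.16 and -0.36 ± 0.17 (SE; edgeR adjusted p = 0.111 and 0.210).

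A minority of rows lay near 0. The log2 fold change was between -0.25 and 0.25 in 13 of the 77, among them Rpl6, Rpl17, Rpl28, Rps28 on chromosome 7, both Rplp1 rows, Rpl9 (-0.20), Rpl13 (0.04) and Rps19 (-0.01). Rps19, the gene most often mutated in Diamond-Blackfan anaemia, had 1.69, 1.39, 0.739 and 1.71 CPM in controls and 1.32, 1.51, 1.29 and 1.36 CPM in GK. Rpl13 and Rpl9 were, with Rpl10l, the tested rows of lowest FPKM (means of 1.66, 1.76 and 1.52). The SE of Rpl13 and Rps19 was 0.36 and 0.31, beside a median shift of -0.51, so a change of that size could not be told from 0 in these rows. Rows of many counts with such a change, as Rpl29 (-0.60 ± 0.24 SE, edgeR adjusted p = 0.153), did not pass either. With the other rows described as the same protein added, as given next, the log2 fold changes of L9, L13 and S19 were -0.46, -0.58 and -0.34 (edgeR adjusted p = 0.137, 0.118 and 0.350). Their named rows held 3.16%, 1.08% and 1.84% of the counts.

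Rows outside the member names took a large part of the ribosomal protein counts. Besides the 88 members the gene table holds 125 rows described as a cytosolic ribosomal protein, a pseudogene of one or a gene similar to one. They are called copies here, but their sequences were not compared. Some may be the main gene of a protein under another name, since such rows held all 19661 counts of L8 and all 17547 of L10. They took 388822 counts over all libraries, and the members 718106. In 19 of the 71 proteins with a member row, that row held under 50% of the counts of all rows of the protein. The sources used here do not say how reads that match several of these rows were assigned, so the division of counts among them is uncertain. Most copies also lay below 0, where 50% of all tested genes did: 73 were tested, 67 had a log2 fold change below 0, and the median was -0.48. Of these copies 9 were called lower by edgeR and 0 higher, against 3.31% and 3.96% of all tested genes. The lowest was a copy of L23a on chromosome 2 (RGD1564606), with 59, 64, 55 and 122 counts in control libraries 7 to 10 and 2, 4, 2 and 3 in GK 7 to 10. Control and GK levels were 5.58 ± 2.07 CPM and 0.194 ± 0.0687 CPM (SD, n = 4 each).

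When all rows of a protein were added before the fit, a step chosen after the copies had been seen, the set still stood lower and the genes called were partly others. Of 82 proteins 80 were tested, 75 had a log2 fold change below 0, and the median was -0.48. By edgeR 9 were called lower and 0 higher, against 3.28% and 3.96% of all 13603 rows in that fit. The calls of Rpl22l1, Rpl14, Rps16 and Rpl7 held. Their member rows already took 100%, 99.8%, 100% and 99.9% of the counts, so adding copies could hardly change these calls. L21 (-0.68 ± 0.15 SE, edgeR adjusted p = 0.0346) and S12 (-0.94 ± 0.23, 0.0467), which have no member row, passed. S17 (-0.64 ± 0.14, 0.0339), L26 (-0.66 ± 0.16, 0.0440) and L10a (-0.80 ± 0.19, 0.0467) also passed, with 19.5%, 47.0% and 3.97% of their counts on member rows. The calls of Rps18, Rpl30 and Rps10 ended. Leaving out 1 library took the count of lower proteins from 0 (without control 10, GK 7 or GK 8) to 12 (without GK 9), with 1 without control 8, 2 without control 9 and without GK 10, and 4 without control 7.

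In those 3 proteins, and in S7, the share of counts on the named row differed between the groups. The Rps18 row held 6.48%, 3.59%, 2.20% and 4.66% of S18 counts in control libraries 7 to 10 and 0.822%, 1.22%, 0.689% and 0.964% in GK 7 to 10. Nearly all other S18 counts were on 1 copy (LOC100360679), and the sum over rows had a log2 fold change of -0.70 ± 0.25 (SE; edgeR adjusted p = 0.117), not -2.77. The Rpl30 row held 5.06%, 8.28%, 7.36% and 5.28% of L30 counts in controls and 3.06%, 1.93%, 1.87% and 2.05% in GK, and the sum had -0.61 ± 0.25 (SE; adjusted p = 0.153 by edgeR). The Rps10 row on chromosome 20 held 53.2%, 55.8%, 51.2% and 45.4% of S10 counts in controls and 37.3%, 40.8%, 43.7% and 34.4% in GK, with a sum at -0.33 ± 0.16 (SE; adjusted p = 0.218 by edgeR). S7 took the opposite direction once its rows were added. The Rps7 row held 4.24%, 3.80%, 4.50% and 4.39% of S7 counts in controls and 13.4%, 10.3%, 11.7% and 13.7% in GK. The sum over the S7 rows had a log2 fold change of -0.68 ± 0.22 (SE; edgeR adjusted p = 0.0945). In all 4 proteins the shares of the groups did not overlap, and these rows were picked out after their values had been seen. A row whose fold change departs from that of its protein's sum differs in share as well, so the shares restate that departure. How many rows of all proteins had such shares is not given here.

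**Figure D5:**
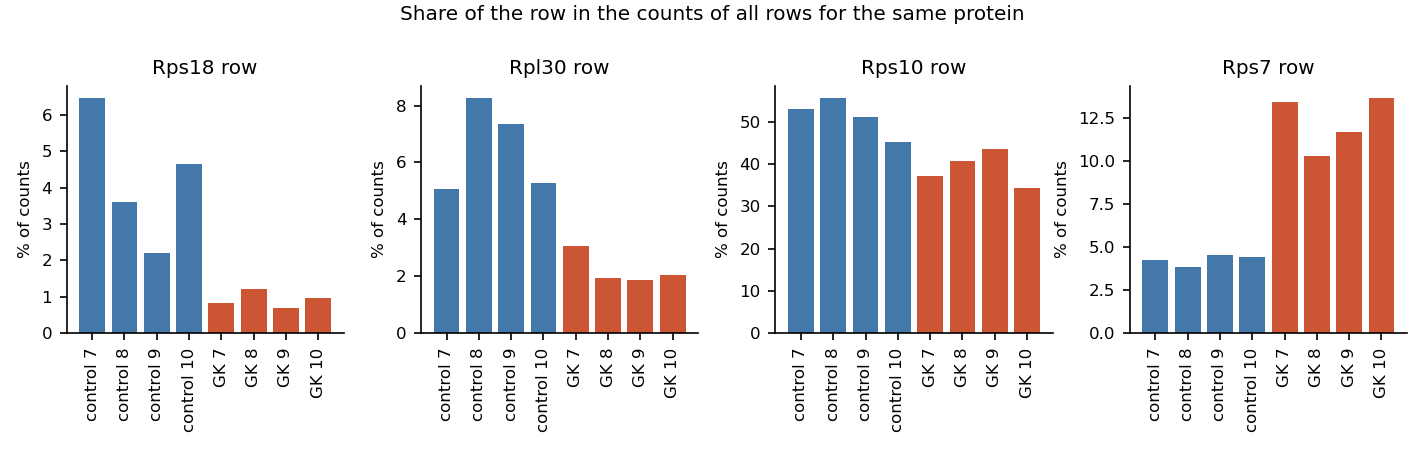
Percent of the counts of all rows of a protein that fell on the named row (y axes from 0, which differ in range), by library (blue control, red GK), for Rps18, Rpl30, Rps10 (the row on chromosome 20) and Rps7. The share was lower in every GK library for the first 3, and for Rps7 it was 10.3% to 13.7% in GK against 3.80% to 4.50% in controls.

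Ribosomal protein genes are short, and their values were set beside those of other genes of like length. The tested members had a median exon length of 586 bases, against 2515 bases for the other tested genes, where the rows of copies were left out. Among other genes under 600 bases the median log2 fold change was -0.03 (590 genes), and among the 39 members of that length it was -0.46. Of genes from 600 to 1000 bases, 796 others had a median of 0.00 and 22 members of -0.49. From 1000 to 2000 bases, 3613 others had 0.02 and 13 members -0.53. Only 3 members were longer. Members are also higher in level than most genes. Above a log2 CPM of 5, the medians under 600 bases were 0.24 (89 others) and -0.51 (20 members). From 600 to 1000 bases they were 0.19 (161 others) and -0.49 (14 members). The exon length equalled the span of the locus within 1 base in 22 member rows, so these have no intron in the model, as processed copies do. The 14 of these that were tested had a median of -0.67 with 13 below 0 and 0 called by edgeR. The 63 tested rows with introns had a median of -0.45 with 55 below 0, and all 7 calls were among them. The rows were also split by start sequence, keeping tested rows on the chromosome of the start of that name. The 28 with the run had a median of -0.53 (24 below 0, 3 called), and the 21 without had -0.40 (18 below 0, 2 called). The called rows of Rpl30 and Rpl7 had no RefSeq start entry and are in neither part. With every row of a matched name, whichever its chromosome, the medians were -0.52 over 34 rows and -0.43 over 23. Among these, the 22 rows whose name had the strict tract had a median of -0.49, with 16 below 0 and an upper quartile of 0.06.

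Other genes of the pathway were read from lists named in the methods. Other mRNAs known for a TOP tract, such as those of elongation factors, lay lower as well: 16 of 20 tested had a log2 fold change below 0, the median was -0.30, and Eif3e, a subunit of initiation factor 3, was lower (-0.49 ± 0.12 SE, edgeR adjusted p = 0.0499). Of 17 annotated starts of this list, 6 (35.3%) held a run of at least 8 bases and 0 held the strict tract. With 1 library left out 0 genes of the list passed, except without GK 9, where 3 were lower. The summed CPM of that list was 6321 to 8922 in controls and 4837 to 5677 in GK, without overlap. Vim, which encodes vimentin, had the next lowest adjusted p in the list (-0.90 ± 0.27 SE, edgeR adjusted p = 0.0762).

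Lists of genes that make and regulate ribosomes had medians on either side of 0, and few of their genes passed, where 3.96% of all tested genes were higher and 3.31% lower. Of 41 tested assembly factors 2 (4.88%) were higher and 0 lower, with a median of 0.12 (-0.057 with library totals only). The 2 were Rrp12 (0.64 ± 0.13 SE, edgeR adjusted p = 0.0298) and Bysl (0.88 ± 0.19, 0.0318), which act on the small subunit precursor. Among 16 genes of RNA polymerase I and its factors, with a median of -0.11 (0.052 without GK 7) and 9 below 0, 0 passed edgeR's test, 2 had an unadjusted p under 0.05, and the lowest adjusted p belonged to Polr1c (0.88 ± 0.22 SE, 0.0507) and Twistnb (-0.44 ± 0.16, 0.114). Of 30 initiation factors 1 was higher, Eif2b3 (0.75 ± 0.19 SE, edgeR adjusted p = 0.0474), and 1 lower, Eif2b1 (-0.51 ± 0.13, 0.0487), both subunits of the exchange factor eIF2B, and the median was 0.05 (-0.12 with library totals only). Of 20 cytosolic aminoacyl-tRNA synthetases, Wars (1.48 ± 0.19 SE, edgeR adjusted p = 0.00728) and Aars (0.80 ± 0.16, 0.0267) were higher, 3 of the 20 lay below 0, and the median was 0.24. In the mTORC1 list Mtor itself was higher (0.66 ± 0.14 SE, edgeR adjusted p = 0.0344), and Myc, which drives ribosomal protein transcription, had -0.91 ± 0.23 (SE; adjusted p = 0.0525 by edgeR) with groups that did not overlap, and the median of the 26 tested was 0.11 (-0.046 with library totals only). Of 10 tested genes of the p53 response 7 lay below 0 with a median of -0.27, and Gadd45a was lower (-0.87 ± 0.19 SE, edgeR adjusted p = 0.0312), and Mdm4 was next (-0.47 ± 0.20, 0.162). Single libraries moved these calls: without GK 7, and likewise without GK 8, 1 synthetase and 0 genes of the other lists in this paragraph passed, and without GK 9 there were 9 higher and 1 lower among assembly factors, 6 and 1 among initiation factors, 5 and 0 among synthetases, 5 and 5 in the mTORC1 list, 1 and 0 for RNA polymerase I and 0 and 2 in the p53 list.

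The mitochondrial ribosome, a separate set of proteins encoded in the nucleus, lay on the other side of 0. Of 73 tested genes 8 had a log2 fold change below 0, and the median was 0.45. By edgeR 3 (4.11%) were higher, near the 3.96% of all tested genes, among them Mrps2 (1.19 ± 0.22 SE, adjusted p = 0.0219) and Mrps11 (0.95 ± 0.24, 0.0486), and 0 were lower. The number higher was 0 without any 1 of control 7, control 9, control 10, GK 7, GK 8 and GK 10, 2 without control 8, and 26 without GK 9. The share of all counts on the 13 mitochondrially encoded genes ran from 8.05% in control 9 to 26.8% in control 8, and from 14.5% in GK 9 to 31.2% in GK 10. Brown adipocyte markers, which mark a cell type rich in mitochondria (9 of 11 found, none at 0), summed to 704 to 3586 CPM in controls and 1956 to 6767 CPM in GK, and their part in these values was not tested.

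The authors' deposited table calls 5 of the 88 members, 4 lower (Rps18, Rpl30, Rpl22l1 and Rps16) and Rpl3l higher, where it calls 2.48% of all its genes lower and 2.92% higher. In the authors' deposited table of pathways, Ribosome had 7 called genes of 162 annotated, 3 higher and 4 lower, with an enrichment p-value of 1. In the authors' deposited table of GO terms, the cytosolic large ribosomal subunit had 7 called of 146, 1 higher and 6 lower (enrichment p-value 0.813). The authors' deposited list of lncRNA and target pairs is, per its name, for lncRNAs that differ between the groups. It names 4 members: Rpl9 with 29 lncRNAs, Rpl17 and Rpl27a with 20 each, and Rpl14 with 1. The partner of Rpl14, NONRATT028181.2, is the single pair listed as cis and lies inside the Rpl14 locus (chromosome 8, 129242647 to 129243402). It had 37, 47, 65 and 40 counts in control libraries 7 to 10 and 10, 6, 11 and 13 in GK 7 to 10, equal to 2.24% to 3.49% and 0.578% to 1.15% of the Rpl14 count. All GK counts were below all control counts. Since the list was made from lncRNAs that differ between the groups, this separation is a description and no separate result. The sources used here do not say whether counting used strand, so reads of this transcript and of Rpl14 cannot be told apart.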

How the data were processed

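Total RNA of thoracic aorta was sequenced in 8 libraries, 4 control and 4 GK, grouped by the titles in the labels; the source name, which reads GK in controls too, was left aside. Per the file headers, the authors deposited unnormalized counts for genes and for lncRNA transcripts, with FPKM beside them. The log2 fold changes, p-values and q-values deposited by the authors come from edgeR per the file names. The numbers of genes per term, and other values such as transcript length, are the authors' deposited values per the file headers. The submitters' processing notes name Bowtie 0.12.2 and the mouse builds mm8 and mm9 without a role. The sources used here do not name the rat build, so loci are printed as deposited, and only the start windows are from RefSeq GRCr8.

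Counts were tested with edgeR 4.0.16 in R 4.3.3 (filterByExpr, TMM, glmQLFit and glmQLFTest, group only) over the whole table, with Benjamini-Hochberg adjustment and a threshold of 0.05. SE is the log2 fold change divided by the square root of F. DESeq2 1.42.0 was an alternative. The fit was tested on simulated data. Levels are CPM on the TMM-scaled library size (factors 0.825 to 1.24, totals 11760397 to 16266151). Exon length came from count over FPKM. Rows of copies were assigned to a protein by their deposited description. Paralogue ratios were tested by two-sided exact permutation where both rows had at least 10 counts in every library. No 2 libraries held the same values (at least 16790 genes differed).

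The members, lists and comparisons were chosen with earlier results of these data known. Members named are those past the test, the 3 highest and 3 lowest fold changes, the 5 highest and 3 lowest FPKM, the paralogue pairs and a short list of proteins known for other roles; of each related list, the 2 genes of lowest adjusted p. A few genes that the rule names are not reported here. Lists were the core proteins and paralogues, other TOP mRNAs, initiation factors, assembly factors, RNA polymerase I, synthetases, mTORC1, the p53 response and markers of cell types.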

Additional observations from a re-analysis of the deposited data

Results flagged for a closer look

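In 74 groups of 4 values (the CPM of each named row, the sums and the paralogue ratios, in each group) 4 held a library far from the other 3, by a rule that chance meets in about 1 in 20 groups. Rpl3l was at 21.8 CPM in GK 9, where the other GK libraries were at 0 to 0.894 CPM. The Rpl39 row on chromosome X was at 0.606 CPM in GK 10, against 0.323 to 0.366 CPM in the other GK libraries. The Rpl39 row on chromosome 14 had a single count in control 9 (0.0672 CPM) and a single count in GK 10 (0.0757 CPM), and 0 in the other 6 libraries. None of these 3 rows passed the filter on low counts, so none is among the tested rows. They are part of the summed CPM of the members, and Rpl3l is described above with its single high library.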

How the results depend on the processing

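The median log2 fold change of the members stayed below 0 in every alternative, between -0.65 and -0.35 over all settings without summed copies. It was -0.65 with library totals only, a scaling that moved the median of all tested genes to -0.15, and -0.35 without control 8. The ratio of summed CPM ranged from 0.65 to 0.80, with 0.67 and 0.80 as the lowest and highest without 1 library. The large and small subunit medians ranged from -0.56 to -0.33 and from -0.62 to -0.36 without 1 library.

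The count of rows called depends on the setting. Against 7 lower and 0 higher, DESeq2 called 15 lower and 1 higher, library totals only 4 lower, mitochondrially encoded genes left out 4 lower, and no filter 3 lower. Without 1 library the count of lower rows ran from 1 to 11 and of higher rows from 0 to 2: the lowest came from leaving out GK 7 or GK 8, and the highest, with 2 higher, from leaving out GK 9. With copies summed (an alternative added after seeing the data), it ran from 0 to 12 lower without 1 library, with 0 higher.

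Same-numbered libraries of the groups had correlated deviations of 0.45, 0.15, 0.57 and -0.01 for numbers 7, 8, 9 and 10, and not every library correlated best with its own number, so the numbers were not taken as pairs. With the replicate block 15 rows were called lower, and 18 proteins with copies summed and the replicate block.

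Of the 7 called rows, Rps18 passed in 17 of 18 alternatives and Rpl22l1 in 16 (not without GK 7 or without GK 8), Rpl30 in 12, Rps16 in 10, Rpl14 in 9, Rpl7 in 8 and Rps10 in 4. Reversed signs were seen only in rows that had not passed: Rps7 with copies summed (-0.68); Rpl13 with library totals only (-0.14), the replicate block (-0.011), copies summed (-0.58), and without control 9, GK 8 or GK 10 (range over single libraries left out -0.16 to 0.23); Rpl7l1 with library totals only (-0.14) and without GK 10 (-0.015); the Rplp1 rows on chromosomes 17 and 8 with library totals only (-0.0069 and -0.021) and without GK 10 (-0.033 and -0.077; highest without 1 library 0.34 and 0.32); and Rps19 with DESeq2 (0.012), RLE factors (0.0037), the replicate block (0.041) and without control 7, control 10, GK 7 or GK 9 (range over single libraries left out -0.22 to 0.11). The median of related lists turned sign with library totals only for initiation factors (-0.12), assembly factors (-0.057) and the mTORC1 list (-0.046), and for RNA polymerase I without GK 7 (0.052, the range over single libraries left out being -0.17 to 0.052). That of the skeletal muscle markers turned without GK 9 (-0.37, the highest without 1 library being 6.45) and without both libraries numbered 9 (-0.58). The causes were not tested, apart from fewer libraries in the fits that leave some out. The ratio of Rpl7l1 to Rpl7 was 0.63 to 0.88 higher in GK without 1 library and 0.92 without both libraries numbered 9, where 3 against 3 allows no exact p under 0.1; that of Rps27l to Rps27 ran from 0.11 to 0.48. Rows of few counts, such as Rps19, Rpl13 and Rpl39, are limited by depth.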
